A study of Mus musculus with 7 samples.

Results

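The genes encoding SR proteins and hnRNPs were examined in LSK cells with 1 or both Ddx41 alleles. Members were taken by symbol from the deposited counts: every Srsf gene with a number, every Hnrnp gene other than predicted genes and pseudogenes, and the SR-like genes Tra2a and Tra2b. This gave 33 of 24421 gene symbols, made up of 11 Srsf genes, 2 Tra2 genes and 20 Hnrnp genes. Of these, 32 had enough counts to be tested, and Srsf12 did not.

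SR proteins bind exonic enhancer sequences through RNA recognition motifs and recruit the splicing machinery through domains rich in arginine and serine, whose phosphorylation controls their activity and their place in the nucleus. The hnRNPs coat nascent transcripts and often act against SR proteins at splice sites, and they also take part in RNA export, stability and translation. Many of these genes limit their own level through alternative exons that send the transcript to nonsense-mediated decay, so a transcript total can hold coding and decaying isoforms together. Ddx41 encodes a DEAD-box RNA helicase that has been found with the spliceosome.

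Samples came from lethally irradiated BoyJ recipients of marrow from RosaCreERT2 donors that were either wild type (Ddx41+/+) or carried 1 floxed Ddx41 allele (Ddx41+/-). Tamoxifen (1 mg, 2 rounds of 5 days) was injected into recipients of both genotypes, so controls carried the recombinase and the drug as well. Lin-Sca1+Kit+ (LSK) cells, the marrow fraction with stem cells and multipotent progenitors, were sorted from single mice 8 weeks after transplant, with 4 Ddx41+/+ (replicates 1 to 4) and 3 Ddx41+/- samples (replicates 6 to 8). RosaCreERT2 is active in any cell type, but here only the grafted cells carried it. Whether surviving host cells were gated away is not stated for these samples, and neither are the ages or sexes of the mice. A Ddx41+/- library numbered 5 had been removed from the counts and was not analysed here.

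Total counts per sample ranged from 32234499 to 43751290. Ddx41 itself was measured at 92.8, 98.8, 93.3 and 106.6 CPM (counts scaled to library size) in Ddx41+/+ and at 68.1, 64.4 and 69.5 CPM in Ddx41+/- samples, without overlap (log2 fold change -0.54, SE 0.071, edgeR adjusted p = 0.0052). Ddx41+/- replicate 7 stood apart on the first principal component, at 35.66 against -12.88 to 0.24 for the other 6 samples. The 11 LSK markers summed to 1859 to 2068 CPM in Ddx41+/+ and 1746 to 1896 CPM in Ddx41+/- samples, and none was at 0. Mature neutrophil genes (9 of 10 listed in the counts) summed to 804 to 1319 against 1403 to 2344 CPM, and G2/M genes to 2481 to 2675 against 2703 to 2983 CPM, both without overlap between the genotypes. These lists moved in the direction of most members below, and their part in the members' values was not tested. Ranges overlapped for B-lineage, T and NK, macrophage, stromal and S-phase genes. They also overlapped for late erythroid genes, of which the globins Hbb-bt, Hbb-bs, Hba-a1 and Hba-a2 were at 0 in all samples. Immediate-early genes summed to 422 to 922 CPM in Ddx41+/+ and 765 to 1296 CPM in Ddx41+/- samples. Their ranges overlapped, but the means were 604 and 1100 CPM. Their part in the members' values was not tested either.

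None of the 32 tested members differed between Ddx41+/- and Ddx41+/+ LSK cells past an edgeR Benjamini-Hochberg adjusted p of 0.05, where 0.217% of all 13340 tested genes did (0.12% higher and 0.0975% lower in Ddx41+/-). None passed 0.1 either, against 0.555% of all genes. DESeq2 and limma-voom each called 0 members at 0.05, where they called 1.17% and 0.277% of all genes. The smallest adjusted p among members was 0.37, for Hnrnpul1. Fitted log2 fold changes (Ddx41+/- over Ddx41+/+) lay between -0.13 for Hnrnpa1 and 0.16 for Srsf10, with a median of 0.042 beside -0.0048 over all genes. The lower extreme rested on Ddx41+/+ replicate 4, since Hnrnpa1 was at -0.023 without it. They were above 0 for 21 members and below 0 for 11, or 65.6% above 0 beside 48.8% of all genes and 55.9% of the 2512 genes that reached 100 CPM. In bulk samples such as these, a change in the mix of cells and a change in RNA per cell cannot be told apart.

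**Figure D1:**
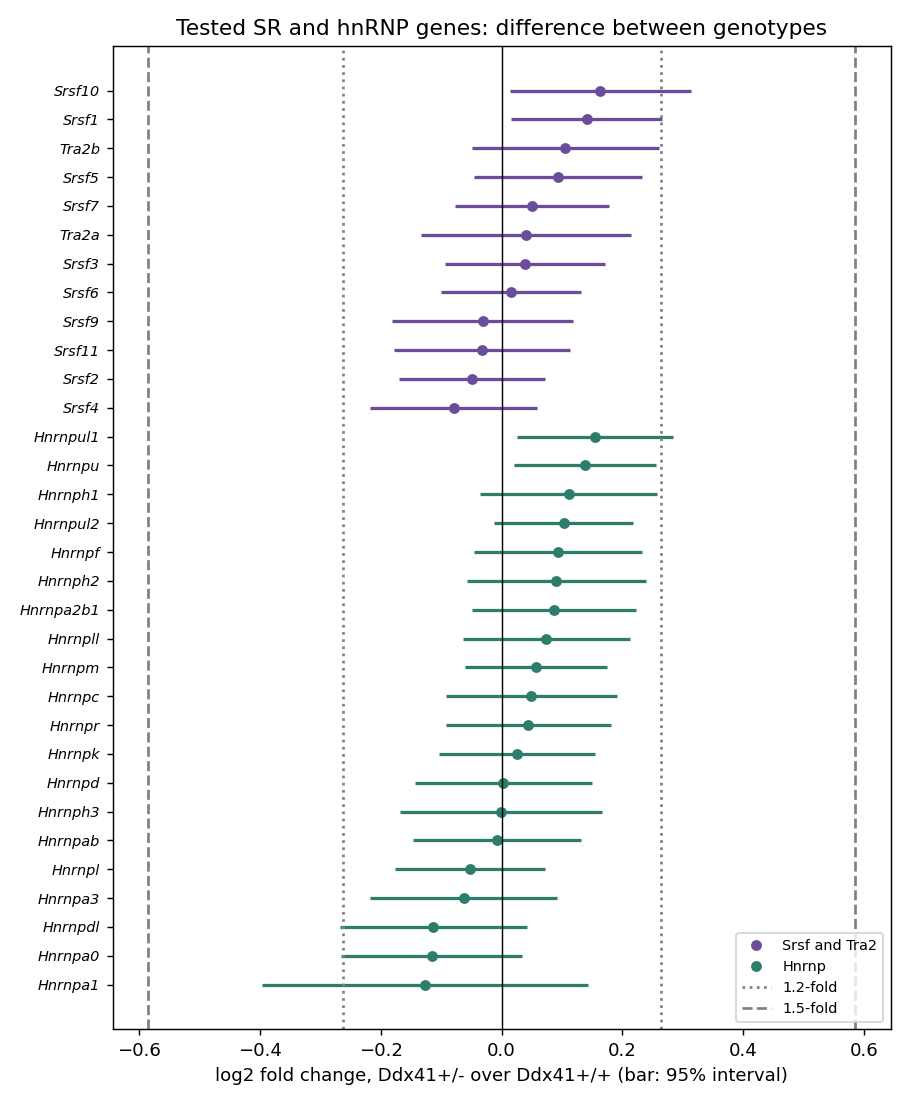
Fitted log2 fold change (x axis) of each tested member (y axis), with its 95% interval as a bar and dotted and dashed lines at 1.2-fold and 1.5-fold. All 32 intervals lie inside 1.5-fold in both directions, and 4 of them (Srsf10, Srsf1, Hnrnpul1 and Hnrnpu) lie above 0.

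The intervals state how large a change the data leave possible. All 32 members had a 95% interval inside 1.5-fold in both directions, as did 70.2% of all genes. Among genes at 100 CPM or more, 2463 of 2512 did. For 26 members (81.2%) the interval was inside 1.2-fold, beside 31.6% of all genes and 72.4% of genes at 100 CPM or more. The widest lower bound was 0.76-fold, for Hnrnpa1, the member with the fewest counts among those tested. The widest upper bound was 1.24-fold, for Srsf10. The plot of fold changes with intervals shows the 12 Srsf and Tra2 genes between -0.08 and 0.16 and the 20 Hnrnp genes between -0.13 and 0.15 on the log2 scale, with medians of 0.039 and 0.047. The difference between the families was not tested.

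At an unadjusted p under 0.05 there were 4 members (12.5%), all with a higher mean in Ddx41+/-. They were Hnrnpul1, Hnrnpu, Srsf1 and Srsf10. Among all genes the share was 10.6% in either direction, with 5.7% higher and 4.93% lower in Ddx41+/-. Among the 2512 genes at 100 CPM or more it was 13.5%, and there too most were higher, 243 against 96 lower. The count of members changed with single libraries. It was 0 without Ddx41+/- replicate 7 (7.31% of all genes), 1 without Ddx41+/+ replicate 2 (8.26%) and 2 without Ddx41+/+ replicate 1 (11.5%), while it was 6 without Ddx41+/- replicate 6 (13.7%). The genotypes did not overlap in CPM for 3 members (9.38%), all higher in Ddx41+/-, beside 10.1% of all genes in either direction (4.85% higher, 5.21% lower).

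Among the SR proteins, Srsf1 (chromosome 11, 88047373 to 88053755 in GRCm38) encodes the founding member of the family, known as SF2/ASF. It was measured at 489.9, 539, 549 and 506 CPM in Ddx41+/+ and at 567, 588 and 567 CPM in Ddx41+/- samples. All 3 Ddx41+/- samples were above all 4 Ddx41+/+ samples. The mean in Ddx41+/- reached 110.3% of that in Ddx41+/+ (log2 fold change 0.14, SE 0.059, 95% interval 0.016 to 0.27, edgeR p = 0.0295, adjusted p = 0.404, exact permutation p = 0.0571). Srsf10 (chromosome 4, 135855747 to 135869908), an SR protein that acts as a splicing repressor when dephosphorylated, was at 134, 144, 152 and 154 CPM against 150.3, 175 and 164 CPM. Ddx41+/- replicate 7 was the highest sample and replicate 6 lay within the Ddx41+/+ range (log2 fold change 0.16, SE 0.071, 95% interval 0.013 to 0.31, edgeR p = 0.0347, adjusted p = 0.423, exact permutation p = 0.143). Its log2 fold change was 0.11 without Ddx41+/- replicate 7, and 67.8% of its coding windows have exact copies elsewhere, as described below.

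Srsf2 (chromosome 11, 116849901 to 116853094), a factor recurrently mutated in human myelodysplastic syndromes, was the SR gene with the highest level per exon length. Its values were 581, 572, 566 and 602 CPM in Ddx41+/+ and 553, 587 and 542 CPM in Ddx41+/- samples, and the ranges overlapped (log2 fold change -0.05, SE 0.057, 95% interval -0.17 to 0.07, edgeR adjusted p = 0.812). Srsf5 (chromosome 12, 80945504 to 80950507) was at 359.6, 342, 339 and 367 CPM against 350.2, 414 and 362 CPM, with replicate 7 alone above the Ddx41+/+ range (log2 fold change 0.09, edgeR adjusted p = 0.657, and 0.017 on the log2 scale without that library). Srsf4 (chromosome 4, 131873617 to 131901706) had the most negative fold change of this family. It was at 164, 157, 156 and 180.4 CPM against 157, 157 and 154 CPM with overlapping ranges (log2 fold change -0.08, SE 0.065, edgeR adjusted p = 0.712), and its log2 fold change was -0.032 without Ddx41+/+ replicate 4. Exons of Srsf4 overlap 1532 bases of Gm12992 on the opposite strand, and whether the counting used strand is not given in the sources used here.

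The other Srsf and Tra2 genes tested were Srsf3, Srsf6, Srsf7, Srsf9, Srsf11, Tra2a and Tra2b. Their log2 fold changes ranged from -0.03 for Srsf11 to 0.11 for Tra2b, and their edgeR adjusted p-values from 0.654 to 0.948. Tra2a and Tra2b encode SR-like activators related to the fly sex determination factor transformer-2. Tra2a was lowest in Ddx41+/+ replicate 1, at 91.1 CPM, and spread over 100.2, 117 and 114 CPM in the other Ddx41+/+ samples. The Ddx41+/- samples lay within that range, at 108, 107 and 111 CPM. Srsf12 had 3, 1, 0 and 4 counts in Ddx41+/+ and 11, 4 and 1 counts in Ddx41+/- samples, too few to compare.

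**Figure D2:**
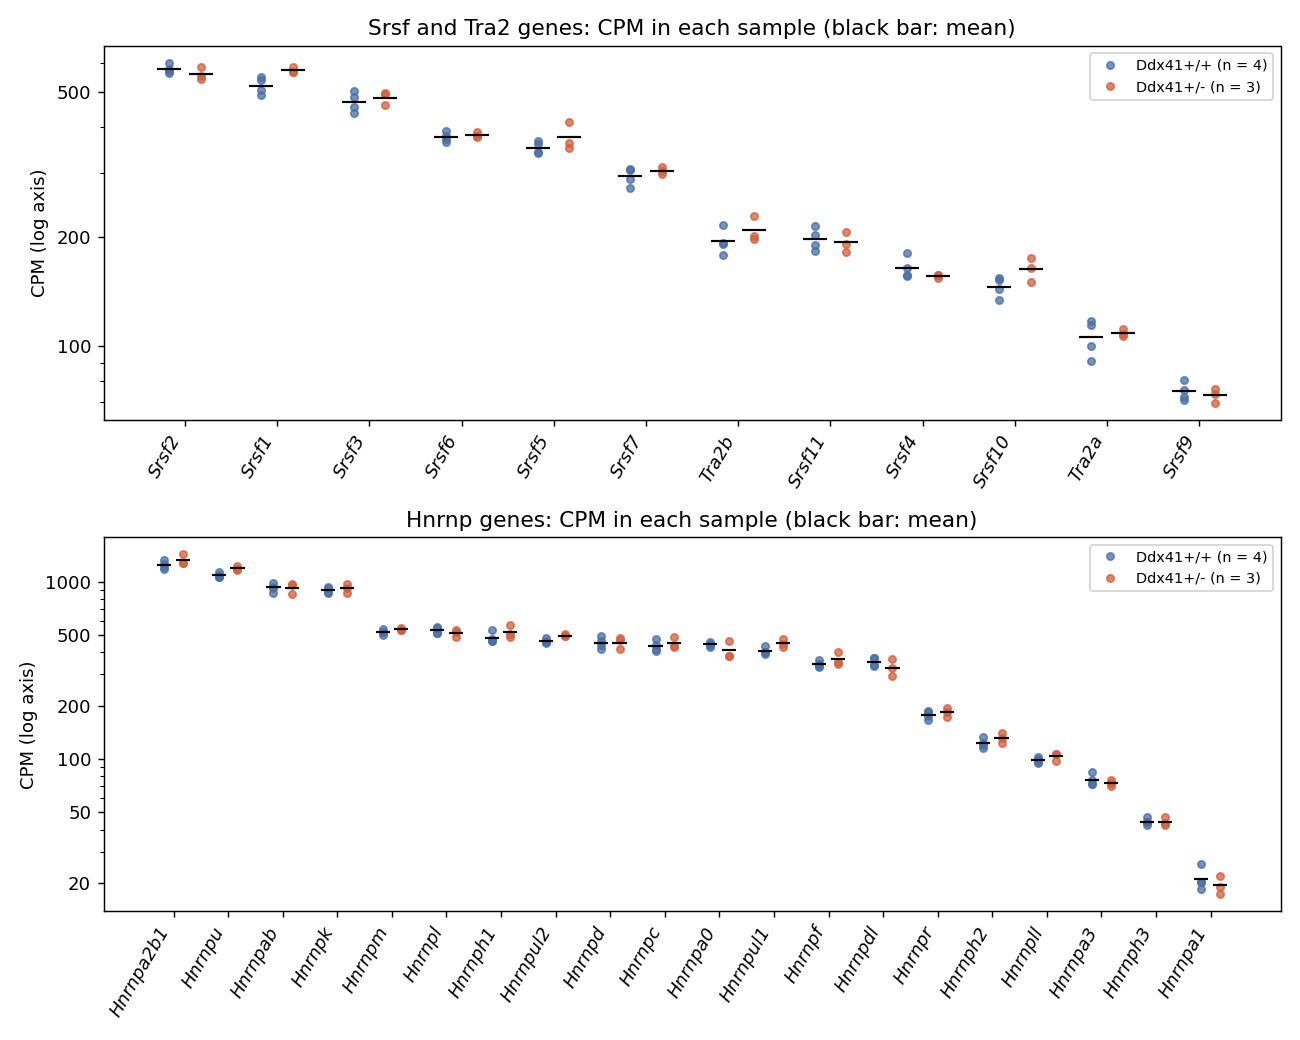
CPM (y axis, log scale) of each tested member in each sample, with Srsf and Tra2 genes in the upper panel and Hnrnp genes in the lower; points are samples of Ddx41+/+ (blue, n = 4) and Ddx41+/- (orange, n = 3), and black bars are means. The points of the genotypes interleave except for Srsf1, Hnrnpu and Hnrnpul2, where all Ddx41+/- points sit above.

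The hnRNP U group held both other members without overlap. Hnrnpu (chromosome 1, 178321108 to 178337797), also called scaffold attachment factor A, binds RNA and chromatin. It was at 1059, 1089, 1126 and 1065 CPM in Ddx41+/+ and at 1170, 1232 and 1181 CPM in Ddx41+/- samples. The mean in Ddx41+/- was 110.1% of the Ddx41+/+ mean (log2 fold change 0.14, SE 0.056, 95% interval 0.021 to 0.26, edgeR p = 0.0241, adjusted p = 0.384, exact two-sided permutation p = 0.0286, the smallest the design allows). Its paralog Hnrnpul1 (chromosome 7, 25721165 to 25754757) was at 403, 399, 389 and 433 CPM against 429.6, 478 and 448 CPM. Ddx41+/+ replicate 4 lay above Ddx41+/- replicate 6, so the ranges overlapped (log2 fold change 0.15, SE 0.061, 95% interval 0.026 to 0.28, edgeR p = 0.0214, adjusted p = 0.37, exact permutation p = 0.0857). The other paralog, Hnrnpul2 (chromosome 19, 8820010 to 8834143), was at 449, 479, 464 and 457 CPM against 493, 492 and 505 CPM. All Ddx41+/- samples were higher, and the 95% interval still included 0 (log2 fold change 0.10, SE 0.054, 95% interval -0.013 to 0.22, edgeR adjusted p = 0.534). Exons of Hnrnpu overlap 804 bases of Cox20 on the opposite strand.

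The hnRNP A/B and D group, RNA-binding proteins with paired RNA recognition motifs, held the members with the most negative fold changes. Hnrnpa0 (chromosome 13, 58125879 to 58128556) was at 439, 448, 429.7 and 456 CPM in Ddx41+/+ and 465, 382 and 379.9 CPM in Ddx41+/- samples. Ddx41+/- replicate 6 was the highest of all 7 samples and replicates 7 and 8 were the lowest (log2 fold change -0.12, SE 0.071, 95% interval -0.27 to 0.034, edgeR adjusted p = 0.59). Hnrnpdl (chromosome 5, 100033577 to 100039664) had the same split within Ddx41+/-. It was at 336, 340.0, 370.3 and 369 CPM against 364, 326 and 292 CPM, where replicates 7 and 8 were below all Ddx41+/+ samples (log2 fold change -0.11, SE 0.073, 95% interval -0.27 to 0.04, edgeR adjusted p = 0.623). The log2 fold changes of both genes depended on single libraries. For Hnrnpa0 it was -0.22 without Ddx41+/- replicate 6, with the smallest edgeR adjusted p of any member in any fit, 0.159, but -0.07 without replicate 7 and -0.066 without replicate 8. For Hnrnpdl it was -0.20 without replicate 6 and -0.037 without replicate 8.

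Hnrnpa1 (chromosome 15, 103240432 to 103246692), a splicing silencer protein that is abundant in most dividing cells, was the tested member with the lowest counts. It was at 18.5, 20.3, 20.2 and 25.6 CPM in Ddx41+/+ and 18.9, 17.3 and 22.0 CPM in Ddx41+/- samples (log2 fold change -0.13, SE 0.13, 95% interval -0.40 to 0.14, edgeR adjusted p = 0.779). Ddx41+/+ replicate 4 was the highest, and the ranges overlapped. The log2 fold change of Hnrnpa1 was -0.023 without that library, -0.053 without Ddx41+/- replicate 7 and -0.23 without Ddx41+/- replicate 8. By contrast its paralog Hnrnpa2b1 (chromosome 6, 51460932 to 51469894) was at 1179, 1261, 1329 and 1209 CPM against 1267, 1423 and 1273 CPM (log2 fold change 0.09, SE 0.064, edgeR adjusted p = 0.68, and 0.028 on the log2 scale without Ddx41+/- replicate 7). Hnrnpab (chromosome 11, 51600100 to 51606847) was at 863, 938, 987 and 924 CPM against 971, 953 and 846 CPM, and its log2 fold change was -0.0073 (SE 0.066, 95% interval -0.15 to 0.13, edgeR adjusted p = 0.982). The ranges of both genes overlapped between genotypes.

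Hnrnpl (chromosome 7, 28808541 to 28822266), which binds CA-rich RNA, was at 516, 513, 545 and 555 CPM in Ddx41+/+ and 521, 531 and 489 CPM in Ddx41+/- samples (log2 fold change -0.05, SE 0.058, edgeR adjusted p = 0.802). The ranges overlapped, and the log2 fold change was -0.018 without Ddx41+/- replicate 8. The other 11 Hnrnp genes had log2 fold changes between -0.06 for Hnrnpa3 and 0.11 for Hnrnph1. None of these had an edgeR adjusted p below that of Hnrnph1, 0.602.

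Within this set the levels themselves covered a wide range. Levels of different genes were compared as RPKM, the CPM divided by the exon length in kilobases, with that length taken over all annotated isoforms. Hnrnpab was highest at 333 ± 19.1 RPKM (SD, n = 7), followed by Hnrnpa2b1 at 194 ± 12.2, Srsf2 at 193 ± 6.91 and Hnrnpa0 at 160.0 ± 12.8 RPKM. Hnrnpa2b1 and Srsf2 differed by less than their SD. At the low end of the tested members were Hnrnpll at 8.60 ± 0.40, Hnrnpr at 8.13 ± 0.42 and Hnrnpa1 at 6.47 ± 0.87 RPKM. The untested Srsf12 was lower still, at 0.029 RPKM. Hnrnpll encodes an RNA-binding protein known for CD45 splicing in T cells. The exons of Hnrnpr sum to 22199 bases over all isoforms, so its RPKM is low for its 5927 to 8189 counts per sample.

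To see which members could lose reads to copies elsewhere, 1 coding sequence per member was cut into windows of 75 bases. The paper gives this as the length of its paired reads, and each window was looked up in annotated transcripts of other genes. The pairing of reads was not modeled, and untranslated exons were not searched. For Srsf10 this covered 549 coding bases, against 7003 exon bases over all isoforms. The shares below are of coding windows and not of a gene's reads. Genes whose exons overlap those of a member, such as March2 for Hnrnpm, were left out of its search. Of the 33 members, 20 had no window with an exact copy in the genes searched, and 7 had an exact copy for most of their windows. These were Hnrnpa3 (97.6% of windows), Hnrnpf (91.9%), Srsf3 (82.8%), Hnrnpa1 (78.0%), Srsf10 (67.8%), Hnrnpk (63.7%) and Tra2b (62.8%). Of the 78 pairs of a member and a gene holding such a copy, 72 involved a pseudogene. For 2 members the copies were many, 38 genes for Hnrnpa3 and 14 for Hnrnpa1. The window below, from Hnrnpa3, shows what a read from such a gene can look like, and all of it is shared with 18 other genes (GENCODE M21 transcripts, coding strand).
Hnrnpa3, coding bases 122 to 196: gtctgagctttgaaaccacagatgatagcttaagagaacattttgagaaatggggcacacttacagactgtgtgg

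The handling of reads that match several places is not given in the sources used here. Hnrnpa1 and Hnrnpa3 had 582 to 974 and 2550 to 3126 counts per sample. The processed pseudogene Gm10052 shares 815 of the 1045 windows of Hnrnpa1 and was listed at 0 in all samples, while Gm5643, which shares 345, had 7 to 30 counts. A high share of copied windows did not always go with low counts, since Hnrnpf had 10794 to 15620 counts and Hnrnpk 29311 to 38029. The levels and genotype differences of all 7 members with mostly copied windows, Srsf10 among them, are uncertain wherever the counting could divide or drop shared reads. The same limit holds in part for members with smaller shares, such as Srsf5 (45.7%), Hnrnph2 (39.9%), Hnrnpc (19.5%) and Hnrnpr (18.4%). The part of copied sequence in these counts was not tested.

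**Figure D3:**
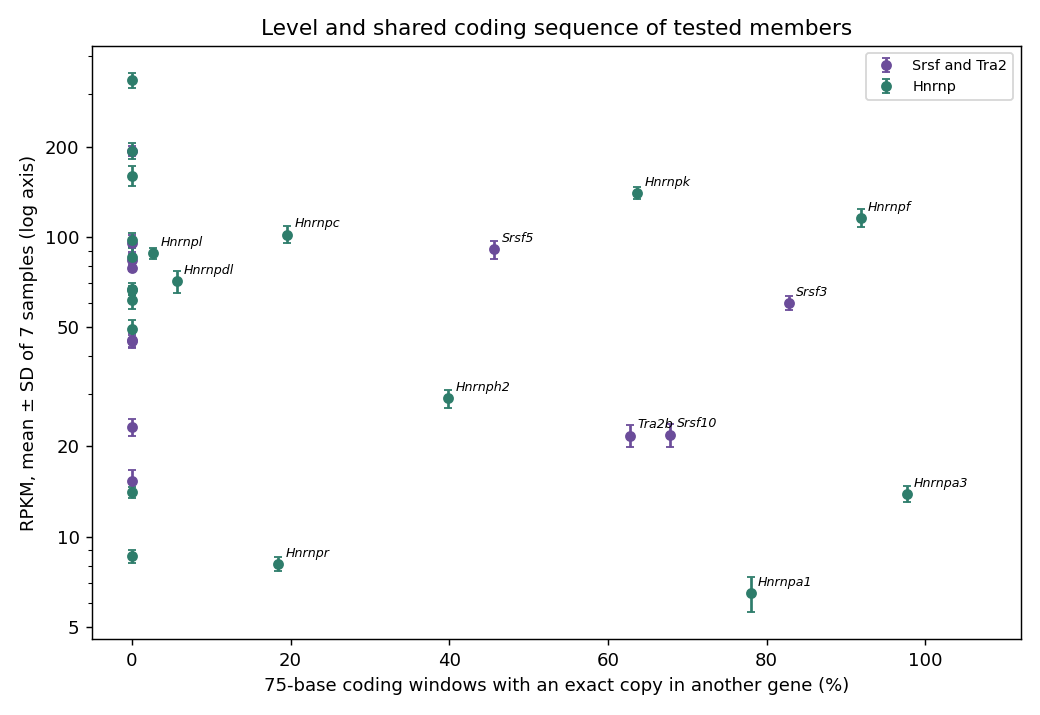
Mean RPKM with SD over all 7 samples (y axis, log scale) of each tested member against the share of its 75-base coding windows with an exact copy in another gene (x axis, %), for Srsf and Tra2 (purple) and Hnrnp genes (green). Hnrnpa1 and Hnrnpa3 combine a high share with a low level, at 6.47 and 13.9 RPKM, whereas Hnrnpf and Hnrnpk reach 116 and 140.1 RPKM at shares of 91.9% and 63.7%.

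The samples were next compared over the whole set. Members took up 1.27% ± 0.021 of counts (SD, n = 4) in Ddx41+/+ samples. In Ddx41+/- they took up 1.29% ± 0.020 (SD, n = 3), and single samples ranged from 1.24% to 1.32%. The Srsf and Tra2 genes held 0.349% and 0.356% of counts in the respective genotypes, and the Hnrnp genes 0.916% and 0.938%. For each sample the log2 CPM of a member was set against that member's mean over the 7 samples, and the median over the 32 members was taken. For Ddx41+/+ this median was -0.08, -0.03, 0.03 and 0.01, in the order of the replicate numbers. For Ddx41+/- it was -0.0047, 0.04 and 0.0015. The lowest and the highest sample were Ddx41+/+ replicate 1 and Ddx41+/- replicate 7, and the genotypes interleaved between them. Ddx41+/+ replicate 1 was the lowest sample for 12 members and the highest for 0, and Ddx41+/- replicate 7 was the highest for 13.

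**Figure D4:**
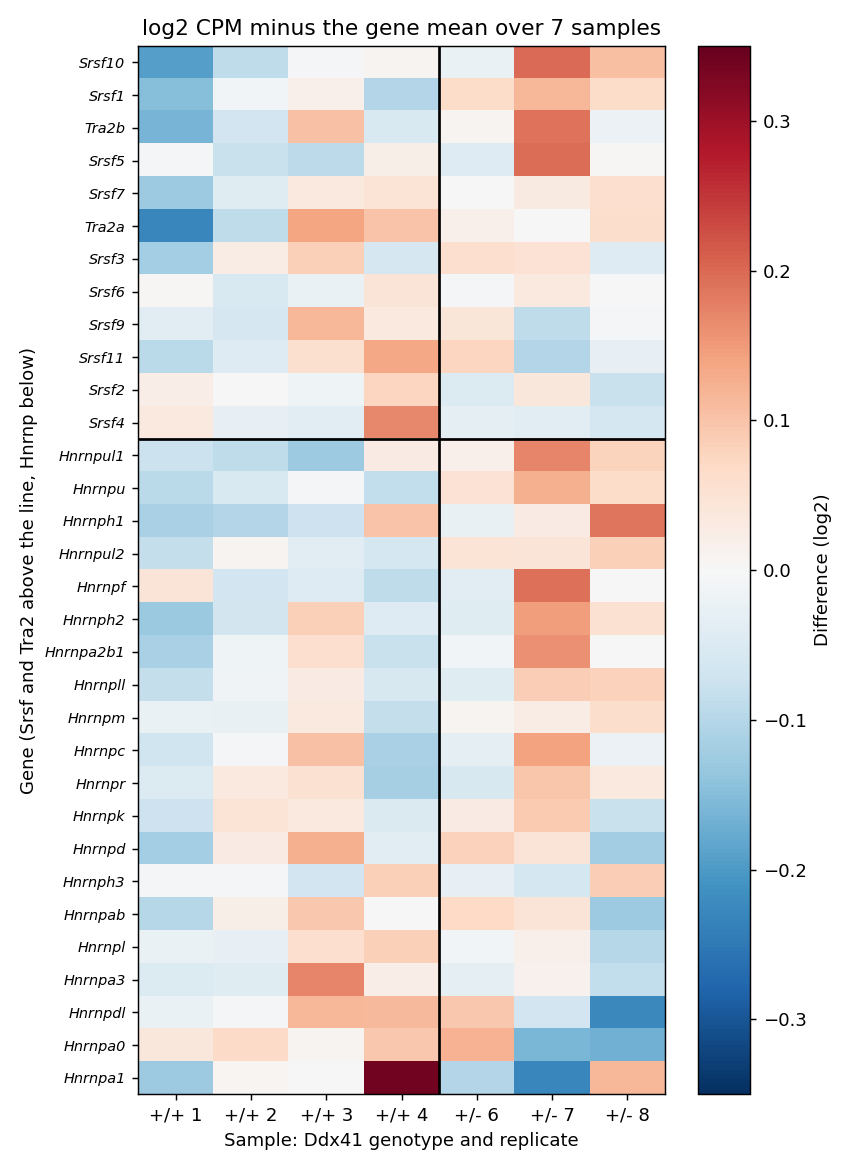
Difference of log2 CPM from the gene's own mean over 7 samples (color, log2) for each tested member (rows) in each sample (columns), with lines parting the genotypes and the gene families. Blue dominates in Ddx41+/+ replicate 1 and red in Ddx41+/- replicate 7, and Hnrnpa0 and Hnrnpdl are red in Ddx41+/- replicate 6 and blue in replicates 7 and 8.

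The spread between samples of a genotype was small for these genes. The median within-genotype SD of log2 CPM was 0.081 over the 32 members, from 0.034 for Hnrnpul2 to 0.19 for Hnrnpa1. Over all tested genes it was 0.14, and over the 2512 genes at 100 CPM or more it was 0.086. The members' median was close to that of genes of similar level.

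Paralogs that can take over or oppose each other's functions were compared as log2 ratios of CPM within each sample, for 10 pairs and without a test. Genotypes overlapped in 9 pairs. The exception was Srsf4 over Srsf6. It was at -1.21, -1.22, -1.26 and -1.11 in Ddx41+/+ and -1.27, -1.31 and -1.30 in Ddx41+/- samples, a difference in means of -0.093. The gap between the genotypes was small, from -1.255 in Ddx41+/+ replicate 3 to -1.266 in Ddx41+/- replicate 6, and Ddx41+/+ replicate 4 stood highest. The share of other gene pairs without overlap was not computed, so this pair may be no exception among genes at large. Differences in means of the 10 pairs ran from -0.21 for Hnrnpa1 over Hnrnpa2b1 to 0.17 for Srsf1 over Srsf9. The lower extreme leaned on Ddx41+/+ replicate 4, at -5.56 where the other Ddx41+/+ samples were between -6.04 and -5.95. It also involves Hnrnpa1, of whose coding windows 78.0% have exact copies elsewhere. The steadiest ratio was Hnrnpd over Hnrnpab, which spanned 0.069 over all 7 samples. The ratio of Tra2a over Tra2b spanned 0.35, from -1.10 in Ddx41+/- replicate 7 to -0.75 in Ddx41+/+ replicate 4.

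Members lay on 17 chromosomes. The closest pairs were Hnrnpd and Hnrnpdl, 54.6 kb apart on chromosome 5, Hnrnpll and Srsf7, 137.7 kb apart on chromosome 17, and Hnrnpa0 and Hnrnpk, 262.6 kb apart on chromosome 13. Hnrnpa0 and Hnrnpk had log2 fold changes of -0.12 and 0.03. Exons of 14 members overlap exons of another gene, on the opposite strand for 11 of them.

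Promoters (RefSeq, GRCm38.p6, 250 bases before to 50 after the start) were found for 31 members, all except Hnrnpll and Hnrnpul2. Their median GC content was 65.0%, beside 52.7% for all 32851 promoters in the table. The GC box core GGGCGG, searched on both strands like all motifs here, was in 25 of 31 (80.6%) beside 35.7% of all promoters, and the CCAAT box CCAAT in 17 (54.8%) beside 37.4%. The ETS-type motif CCGGAAG was in 6 (19.4%, beside 8.86%), the E-box CACGTG in 4 (12.9%, beside 7.15%), the TATA-type motif TATAAA in 4 (12.9%, beside 13.6%) and the CRE TGACGTCA in 1 (3.23%, beside 1.79%). None of these motifs contains another, and a match is not a bound site. No correction was made for GC content or for expression, and all promoters include those of genes that are not expressed here. The upstream 250 bases of the 4 members with an unadjusted p under 0.05 are shown because they are the genes with the largest rise in mean relative to its error, with these motifs in capitals on either strand.
Hnrnpu, chr1:178337816-178338065, minus strand: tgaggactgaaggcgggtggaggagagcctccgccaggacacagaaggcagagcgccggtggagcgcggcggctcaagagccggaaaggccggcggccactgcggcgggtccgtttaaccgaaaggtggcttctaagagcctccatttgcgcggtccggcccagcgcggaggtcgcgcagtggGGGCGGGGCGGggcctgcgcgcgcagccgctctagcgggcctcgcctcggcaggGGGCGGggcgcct
Hnrnpul1, chr7:25754760-25755009, minus strand: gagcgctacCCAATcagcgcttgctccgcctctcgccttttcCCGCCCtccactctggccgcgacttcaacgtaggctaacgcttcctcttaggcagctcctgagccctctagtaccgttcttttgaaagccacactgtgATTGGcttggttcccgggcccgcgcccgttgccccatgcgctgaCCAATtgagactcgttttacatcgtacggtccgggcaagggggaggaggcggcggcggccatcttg
Srsf1, chr11:88047123-88047372, plus strand: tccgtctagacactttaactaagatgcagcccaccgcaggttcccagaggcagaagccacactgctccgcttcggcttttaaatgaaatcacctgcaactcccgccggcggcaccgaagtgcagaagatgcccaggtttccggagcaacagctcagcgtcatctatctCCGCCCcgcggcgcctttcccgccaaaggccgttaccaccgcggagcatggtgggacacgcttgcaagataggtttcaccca
Srsf10, chr4:135855821-135856070, plus strand: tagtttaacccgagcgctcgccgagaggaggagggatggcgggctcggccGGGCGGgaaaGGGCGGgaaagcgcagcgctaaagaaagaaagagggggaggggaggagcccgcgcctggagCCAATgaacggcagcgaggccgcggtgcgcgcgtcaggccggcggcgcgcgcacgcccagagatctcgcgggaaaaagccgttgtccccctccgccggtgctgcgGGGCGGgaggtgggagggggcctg
In these 250 bases GGGCGG was present in all 4, and CCAAT in Hnrnpul1 and Srsf10. The Srsf10 stretch lies upstream of the RefSeq start but inside the GENCODE gene, which starts at 135855747.

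Genes that act with the members were described from 4 lists, with 88 of 91 genes tested. None had an edgeR adjusted p under 0.05, and 11 (12.5%) had an unadjusted p under 0.05. The share was 10.6% of all genes and 13.5% of genes at 100 CPM or more (243 higher, 96 lower). Of the 11 listed genes, 9 had a higher and 2 a lower mean in Ddx41+/-. Without 1 sample this count ranged from 4 to 15, with 4 without Ddx41+/+ replicate 4 (9.67% of all genes), 4 without Ddx41+/- replicate 7 (7.31%), 7 without Ddx41+/- replicate 8 (8.12%) and 15 without Ddx41+/- replicate 6 (13.7%). The median log2 fold change was 0.0089.

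Among 13 tested kinases, phosphatases and import factors of SR proteins, the smallest p belonged to Srpk1, a kinase that phosphorylates SR proteins in the cytoplasm. It was at 152, 148, 147 and 149 CPM in Ddx41+/+ and 153, 179 and 166 CPM in Ddx41+/- samples. The ranges did not overlap, although Ddx41+/- replicate 6 lay close to Ddx41+/+ replicate 1 (log2 fold change 0.16, SE 0.064, edgeR adjusted p = 0.395). The median of this list was 0.051. Among 23 hnRNP relatives under other names, 15 fold changes were negative and the median was -0.014, while Ptbp3, Syncrip and Taf15 had an unadjusted p under 0.05 with higher means. Ptbp3, a polypyrimidine tract binding protein of hematopoietic cells, was at 388, 395, 385 and 373 CPM against 418, 449.7 and 472 CPM, without overlap (log2 fold change 0.21, SE 0.059, edgeR p = 0.00236, adjusted p = 0.194, exact permutation p = 0.0286). With DESeq2 its adjusted p was 0.0429, and over the other 14 alternative fits it ranged from 0.109 to 0.491.

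Of 37 other splicing regulators, 6 (16.2%) had an unadjusted p under 0.05, beside 10.6% of all genes and 13.5% of genes at 100 CPM or more. The mean in Ddx41+/- was higher for 4 of them (Scaf11, Mbnl1, Thrap3 and Bclaf1) and lower for 2. The smallest p was that of Luc7l, a relative of a yeast U1 snRNP protein. It was at 121.5, 105, 119 and 129 CPM in Ddx41+/+ and 99.1, 99.8 and 111 CPM in Ddx41+/- samples, with overlapping ranges (log2 fold change -0.20, SE 0.076, edgeR adjusted p = 0.36). The other was Arglu1 (log2 fold change -0.21, edgeR adjusted p = 0.384). Among 15 nonsense-mediated decay and exon junction genes, Upf2 had the smallest p, at 65.0, 65.8, 69.97 and 66.4 CPM against 74.0, 78.7 and 74.7 CPM, without overlap (log2 fold change 0.18, SE 0.067, edgeR adjusted p = 0.335). The medians of these lists were 0.032 and 0.043, beside 0.042 for the SR and hnRNP members.

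**Figure D5:**
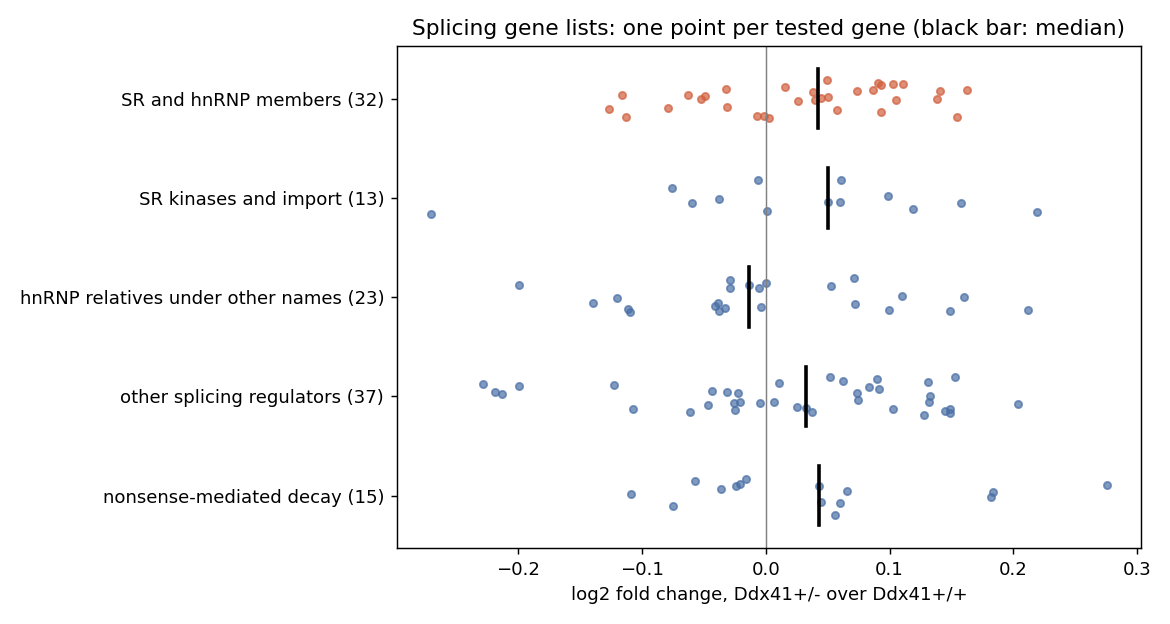
Fitted log2 fold change (x axis) of each tested gene, 1 point per gene, for the SR and hnRNP members (orange) and 4 lists of related genes (blue), with the number of tested genes in brackets and a black bar at the median. The members span -0.13 to 0.16, and list medians lie between -0.014 and 0.051.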

How the data were processed

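The 7 samples were grouped by the genotype in their labels. The authors prepared poly(A) RNA libraries and deposited whole-number counts for each gene symbol, without normalization. The submitters' processing notes name FastQC 0.11.7, HISAT2 2.0.5, featureCounts 1.5.2 and the build mm10. The gene annotation, the use of strand and the treatment of reads with several matches are not given in the sources used here. All 7 sample columns were used, which left 0 unused. Per-gene chi-square was at least 13.7 in all 21 sample pairs, so none repeated another.

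Counts were tested with edgeR 4.0.16 in R 4.3.3 (TMM scaling, filterByExpr, robust quasi-likelihood fit, no covariate), which kept 13340 genes (54.6%) at a biological coefficient of variation of 12.9%. P-values were adjusted over all genes tested, and they measure the spread between recipient mice. The number of marrow donors per genotype is not given in the sources used here. The SE was the size of the log2 fold change divided by the root of F. CPM used TMM-scaled totals, and log2 CPM a prior count of 2. For single genes a two-sided exact permutation test of CPM enumerated all 35 assignments of genotype labels, with a smallest p of 0.0286. Alternatives were DESeq2 1.42.0, limma 3.58.1 (voom with sample quality weights), other scalings and filters, and leaving out each sample. The fits were tested on simulated data with changes of 1.2-fold or more. All members had smaller fitted changes, so that test does not cover changes of their size.

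Members and lists were chosen with earlier results of these data known. Per-sample values were given for the 5 members with the smallest p in each direction, the 3 with the highest RPKM per family, paralog ratios, and the gene with the smallest p per list. Tra2a, Syncrip, Taf15, Scaf11, Mbnl1, Thrap3, Bclaf1 and Arglu1, and the extremes of ranges, were named after their values were seen. Positions and exon lengths came from GENCODE M21 (GRCm38) by symbol, with 23376 symbols matched and 1045 not.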

Additional observations from a re-analysis of the deposited data

How the results depend on the processing

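The number of members with an adjusted p under 0.05 was 0 in each of the 15 alternative fits, and leaving out single samples gave a range of 0 to 0. At an unadjusted p under 0.05 the 4 members became 3 with library totals only and stayed 4 in number in the other 7 fits of all samples, and leaving out single samples gave 0 to 6. Leaving out single samples put the median log2 fold change of members between 0.017 and 0.071 and that of Ddx41 between -0.56 and -0.50. Among the related genes, DESeq2 called 1 (Ptbp3) at an adjusted p under 0.05, and leaving out single samples gave 0 to 0, and 4 to 15 at an unadjusted p under 0.05. Over all genes the number called was 29, and it ranged from 7 without Ddx41+/+ replicate 2 to 156 with DESeq2. Over 480 member values, 456 kept their direction and 24, in 8 members with a log2 fold change within 0.049 of 0, changed sign. In fits of all samples these were Hnrnph3 (0.0016 with median-of-ratios scaling, 0.0017 with DESeq2 and 0.0093 with limma-voom), Hnrnpk (-0.0041 with limma-voom) and Hnrnpd (-0.0047 with upper-quartile scaling, -0.012 with library totals and -0.019 with limma-voom). Leaving out single samples gave -0.047 to 0.027 for Hnrnph3, -0.045 to 0.052 for Hnrnpab, -0.014 to 0.070 for Hnrnpk, -0.0095 to 0.093 for Hnrnpc, -0.082 to 0.0099 for Srsf11, -0.037 to 0.061 for Hnrnpd, -0.062 to 0.0039 for Srsf9 and -0.026 to 0.094 for Tra2a. The cause was not tested. No paired analysis was possible because the replicate numbers of the genotypes, 1 to 4 and 6 to 8, do not overlap. Srsf12, at 0 to 11 counts, was too low to test. Gene totals do not separate the isoforms of a member.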
